A study of Mus musculus with 3 samples.

Results

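The VEGF and angiopoietin systems were followed through embryonic and newborn mouse back skin as 10 genes, of 19165 genes in the deposited single-cell table. The genes were chosen by name and by role: the ligands Vegfa and Vegfc, the VEGF receptors Flt1, Kdr and Flt4, the co-receptors Nrp1 and Nrp2, the angiopoietin receptor Tek, and its ligands Angpt1 and Angpt2. All 10 were in the table with UMIs (unique molecular identifiers, 1 per captured transcript) in each library. Dorsal skin of pooled male C57BL/6 mice, with no allele or treatment given, was dissociated at embryonic days E13.5 and E16.5 and on the day of birth (P0), and 16235 cells were profiled by 3′ RNA sequencing of single cells in droplets. The embryonic skin was digested with trypsin and the newborn skin with collagenase IV. There was 1 library per stage and no replicate, so stage, library and digestion cannot be told apart and no test between stages was possible.

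Vascular endothelial growth factors act on 3 receptor tyrosine kinases of endothelial cells. VEGFR2, encoded by Kdr, carries most of the growth and sprouting signal of Vegfa, VEGFR1 (Flt1) binds Vegfa tightly and is known as a decoy, and VEGFR3 (Flt4) binds Vegfc and is needed for lymphatic vessels. Neuropilins (Nrp1, Nrp2) are co-receptors that also bind class 3 semaphorins. Angiopoietin 1, made by cells around vessels, activates the receptor Tie2 (Tek) and steadies the vessel wall, and angiopoietin 2 is known as its context-dependent antagonist.

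The 4 receptor genes whose levels set endothelial cells apart below are shown by the 250 bases that precede their transcription start, from the RefSeq promoter table (build GRCm38.p6), since endothelial genes are known as targets of ETS factors. Capitals mark GGAA or its complement TTCC, the core letters of the ETS motif, read on both strands. Flt1 lies on the minus strand at chr5:147726012-147726261, Kdr on the minus strand at chr5:75978456-75978705, Flt4 on the plus strand at chr11:49609429-49609678 and Tek on the plus strand at chr4:94739039-94739288.
Flt1: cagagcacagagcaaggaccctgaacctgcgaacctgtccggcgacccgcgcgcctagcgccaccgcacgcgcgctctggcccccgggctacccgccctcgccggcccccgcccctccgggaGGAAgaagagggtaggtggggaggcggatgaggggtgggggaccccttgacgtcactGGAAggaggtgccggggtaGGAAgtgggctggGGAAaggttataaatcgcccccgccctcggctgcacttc
Kdr: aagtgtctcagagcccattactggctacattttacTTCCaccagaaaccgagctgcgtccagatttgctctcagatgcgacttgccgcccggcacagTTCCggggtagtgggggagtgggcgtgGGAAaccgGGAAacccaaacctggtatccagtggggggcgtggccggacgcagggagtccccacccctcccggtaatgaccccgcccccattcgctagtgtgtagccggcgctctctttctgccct
Flt4: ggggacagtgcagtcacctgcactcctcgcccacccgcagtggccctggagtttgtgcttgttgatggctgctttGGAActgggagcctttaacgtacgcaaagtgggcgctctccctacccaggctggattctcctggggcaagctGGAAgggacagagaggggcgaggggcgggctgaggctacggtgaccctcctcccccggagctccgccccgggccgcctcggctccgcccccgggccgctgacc
Tek: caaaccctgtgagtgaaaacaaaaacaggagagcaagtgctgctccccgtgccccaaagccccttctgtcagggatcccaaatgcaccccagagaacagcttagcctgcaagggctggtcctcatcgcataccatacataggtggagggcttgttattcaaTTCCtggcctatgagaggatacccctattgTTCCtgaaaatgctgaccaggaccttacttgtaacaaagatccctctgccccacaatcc
The Flt1 and Kdr windows each held 4 matches, and the Flt4 and Tek windows each held 2. Of 32851 promoter windows of this length, 93.4% held at least 1 match, 33.4% held 4 or more and 76.8% held 2 or more, so these letters are common and a match is a description, not a site. The table had windows for 8 of the 10 genes, and its start of Flt4 lies inside the gene annotation used below. By the gene annotation (GRCm38), Flt1 spans chromosome 5 from 147561604 to 147726011, Kdr chromosome 5 from 75932827 to 75978458, Flt4 chromosome 11 from 49609263 to 49652739 and Tek chromosome 4 from 94739289 to 94874976, and all 10 genes are annotated as protein-coding.

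The libraries held 46599806 to 66239195 UMIs, with a median of 6797 to 11021 UMIs per cell. Between 32 and 44 cell barcodes were shared by each pair of libraries. Cells were clustered in each library without the 10 genes and named from markers other than these, so every class below is "like" a cell type. Blood endothelial-like cells numbered 129, 307 and 255, and all 9 of their markers were detected at every stage, with a summed level of 3694, 4766 and 6922 counts per 1000000 UMIs of the class (CPM). Lymphatic endothelial-like cells numbered 193, 44 and 12, and pericyte and vascular smooth muscle-like cells (pericyte-like) 180 at E16.5 and 242 at P0, with no such class at E13.5. At E13.5 the blood endothelial-like cells also carried markers of other cells: the 7 erythroid markers summed to 33350 CPM, against 1365 and 212 CPM at the later stages. Sub-clusters led by genes of another class made up 80 of 129 of these cells, 86 of 307 and 40 of 255. For the 10 genes, values without them are given where a call or a stated overlap of intervals changed or a stated level left its interval. The fixed lists of further genes below were not recomputed without them.

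Each level below is a CPM with its exact 95% Poisson interval, which covers counting error only. Where a group had 0 UMIs, the level that 3 UMIs would give is stated as what that allows. Since 3′ libraries count transcript ends, CPM does not scale with gene length, and values are compared within a gene. Where 3 values follow each other without a stage, they stand for E13.5, E16.5 and P0. A difference is log2 of the CPM plus 10 in one group over that in the other. It is called where it reached 2-fold in genes with at least 50 UMIs in both groups together.

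In blood endothelial-like cells Flt1, Kdr and Tek were called higher than in all other cells of the skin at all 3 stages. Against all other cells, 4 of the 10 genes were called higher at E13.5 (Flt1, Kdr, Flt4 and Tek), where 3.19% of all genes tested were. The same 4 were called at E16.5, where the share of all genes was 4.75%. At P0 it was 5 (Flt1, Kdr, Nrp1, Tek and Angpt2), against 6.33% of all genes. Without the sub-clusters led by other classes, Nrp2 was also called at E13.5 (5 genes), and Angpt2 was no longer called at P0 (4 genes), as also when every cell had the same weight. The median log2 difference of the 10 genes was 0.42, 0.93 and 0.82. Vegfa was the reverse at E16.5, with 2.11 CPM (1.09 to 3.69) in blood endothelial-like cells and 10.4 CPM in the others.

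**Figure D1:**
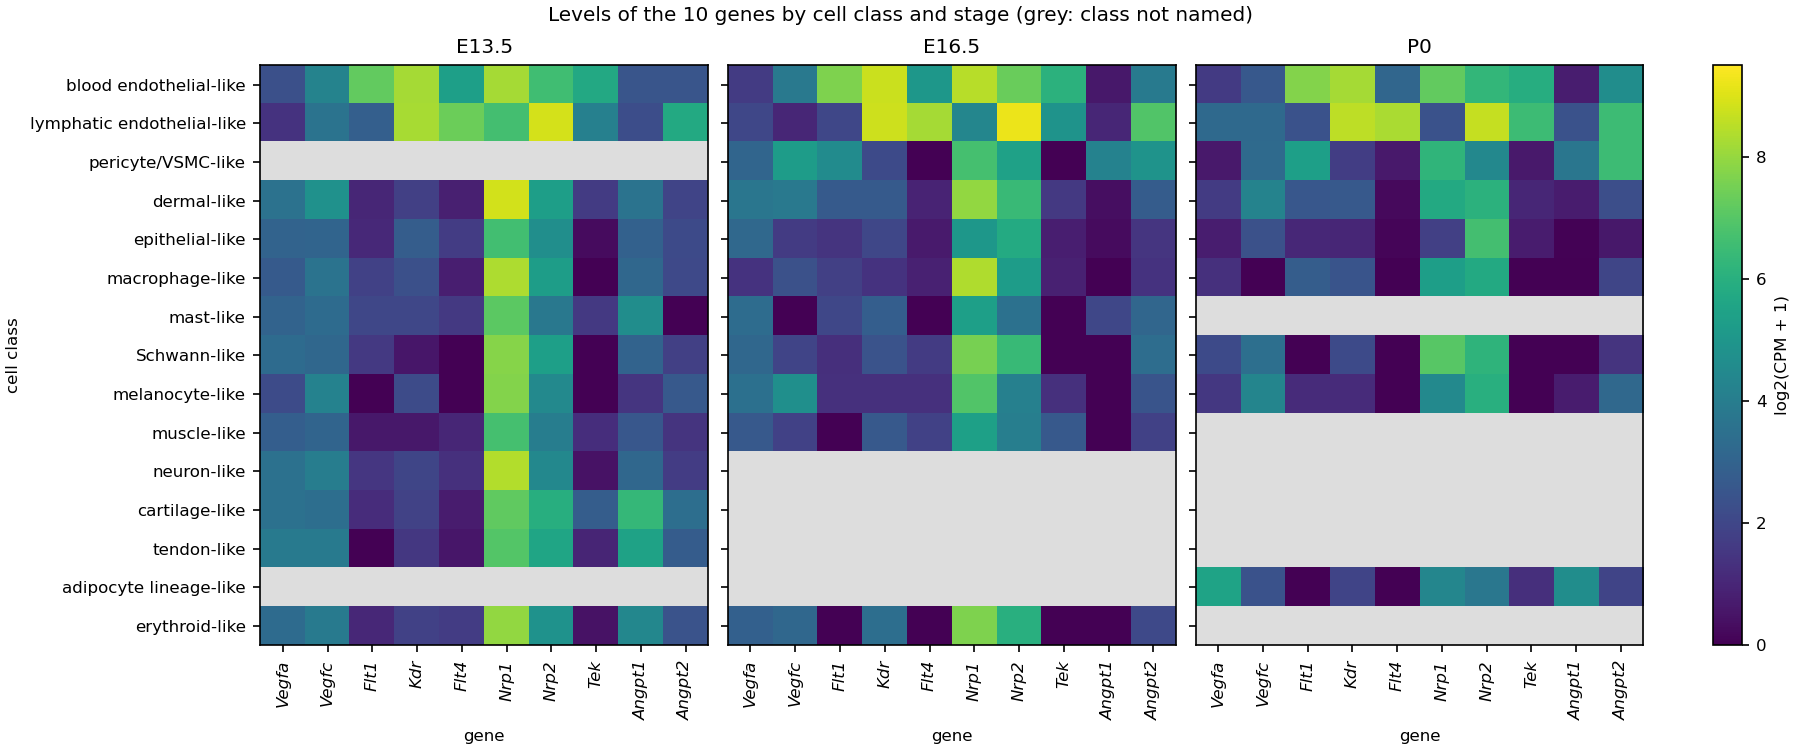
Level of each of the 10 genes (columns) in each cell class (rows) at E13.5, E16.5 and P0, as log2 of CPM plus 1, with classes that were not named in a library in grey. Flt1, Kdr and Tek are high in blood endothelial-like cells, Kdr, Flt4, Nrp2 and Angpt2 in lymphatic endothelial-like cells, and Nrp1 is spread over many classes.

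Among the VEGF receptors, Flt1 in blood endothelial-like cells was 148 CPM (129 to 168), 204 (192 to 216) and 211 (195 to 229). The class held 72.3%, 80.0% and 77.4% of all Flt1 UMIs of the libraries. No other ranked class overlapped with it at any stage. Lymphatic endothelial-like cells, close kin of blood endothelial cells, had 6.43 CPM (3.32 to 11.2), 3.07 (0.633 to 8.97) and 4.30 (0.109 to 24.0). Epithelial-like cells had 1.11 to 1.71 CPM. After every cell had been thinned to 3500 UMIs, Flt1 was seen in 29.5% of blood endothelial-like cells, 49.5% and 43.9%, and in 0.580%, 0.314% and 0.557% of epithelial-like cells, which should lack it. Without thinning the shares in blood endothelial-like cells were 47.3%, 83.7% and 76.1%, at median depths of 7816, 16418 and 9668 UMIs per cell. The median depths of epithelial-like cells were 6240, 13606 and 9549 UMIs, and their unthinned Flt1 shares 0.774%, 2.41% and 1.46%.

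Kdr was shared by both kinds of endothelial-like cells. Blood endothelial-like cells had 299.9 CPM (273 to 329), 423 (407 to 441) and 300.1 (281 to 320.5). In lymphatic endothelial-like cells Kdr was 303 CPM (278 to 329), 442 (401 to 486) and 370.2 (296 to 457), and the intervals of both classes overlapped at every stage. At E13.5 that overlap was lost without the sub-clusters led by other classes, when Kdr in the other 49 blood endothelial-like cells was 438 CPM (393 to 487). The next broad class of at least 50 cells at E16.5 was at 6.15 CPM (1.68 to 15.8, 4 UMIs), in mast-like cells. Thinned to 3500 UMIs, 38.0%, 76.6% and 56.5% of blood endothelial-like cells had a Kdr UMI, against 2.13%, 0.734% and 0.418% of epithelial-like cells; unthinned, the shares were 61.2%, 94.8% and 85.9%, against 4.45%, 4.19% and 1.32%.

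The lower Flt1 and Kdr levels at E13.5 moved with the sub-clusters led by genes of other classes. Without them, Flt1 at E13.5 was 218 CPM (187 to 254) and Kdr 438, beside 216 and 437 CPM at E16.5 when its own such sub-clusters were left out. Kdr at P0 was 314 CPM in the same way. Kdr was lower at P0 than at E16.5 with and without them. The cells left were not alike in make-up: 31 of the 49 at E13.5 were arterial-like, against 31 of 221 at E16.5. In arterial-like cells alone, Flt1 was 251 CPM (214 to 292) at E13.5 and 385 (332 to 445) at E16.5, without overlap. Their Kdr was 482 CPM (430 to 538) and 530 (467 to 598.5), with overlapping intervals. Nrp1 at E13.5 was 344 CPM (304 to 388), Nrp2 120.2 (96.98 to 147), Vegfc 27.1 (16.8 to 41.5) and Angpt1 1.29 (0.0327 to 7.20) in the 49 cells, each outside the interval of the whole class.

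Flt4 marked lymphatic endothelial-like cells, with 162 CPM (145 to 182), 299 (265 to 335) and 314 (246 to 395). In blood endothelial-like cells it was 39.9 CPM (30.4 to 51.4), 31.5 (27.0 to 36.4) and 7.76 (4.92 to 11.6). Both classes thus did not overlap at any stage, and Flt4 in blood endothelial-like cells at P0 lay below both earlier stages. Pericyte-like cells at E16.5 had 0 UMIs of Flt4, which allows up to 1.44 CPM (3 UMIs). Flt4 in dermal-like cells was 0.791 CPM, 0.920 and 0.173.

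**Figure D2:**
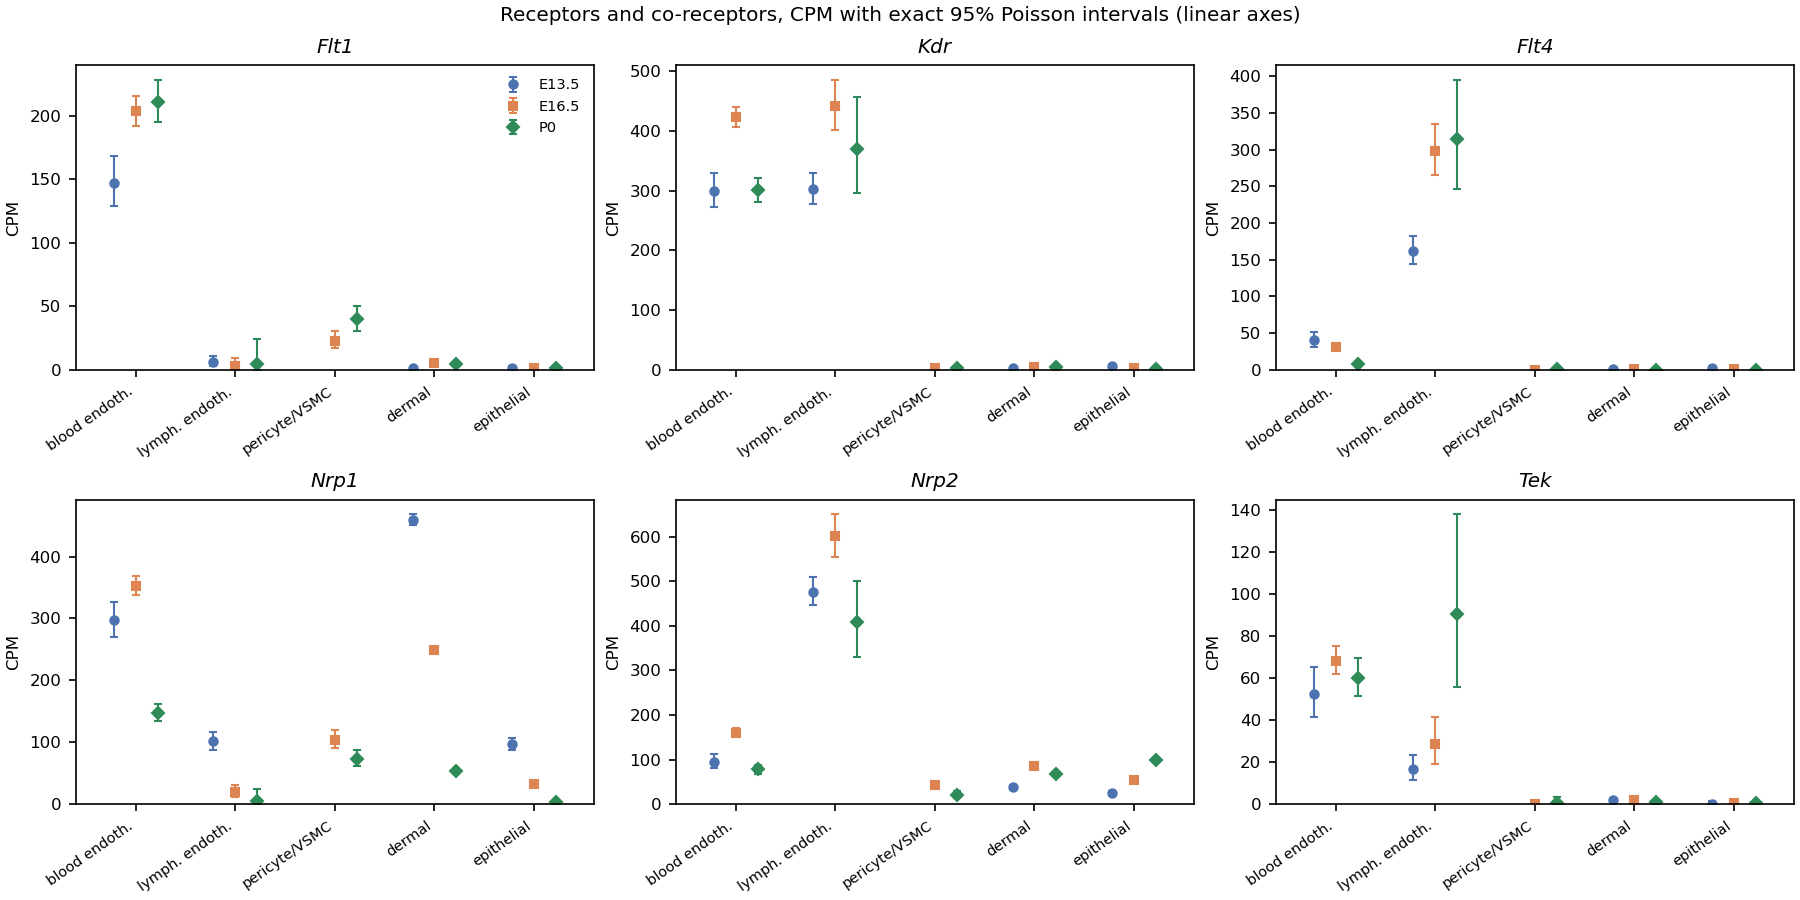
CPM of Flt1, Kdr, Flt4, Nrp1, Nrp2 and Tek in 5 cell classes at the 3 stages, on linear axes, with exact 95% Poisson intervals as bars. Flt1 is high in blood endothelial-like cells, Flt4 and Nrp2 are highest in lymphatic endothelial-like cells, and Nrp1 of dermal-like cells is 460 CPM at E13.5 and 53.4 CPM at P0.

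At E13.5, the only stage with enough lymphatic endothelial-like cells for a comparison over all genes, the receptors and co-receptors split between both vessel types. Flt4, Nrp2 and Angpt2 were called higher in lymphatic than in blood endothelial-like cells, 3 of the 7 genes with enough UMIs, against 1.86% of all genes. Flt1, Nrp1 and Tek were called lower, also 3 of 7, against 2.87% of all genes. The log2 differences were 1.79 (1.33 to 2.24) for Flt4, 2.21 (1.90 to 2.53) for Nrp2 and 2.13 (1.47 to 2.67) for Angpt2. They were -3.26 (-3.74 to -2.71) for Flt1, -1.47 (-1.79 to -1.15) for Nrp1 and -1.23 (-1.83 to -0.62) for Tek. Kdr lay between them at 0.01 (-0.23 to 0.26), and at -0.52 (-0.79 to -0.25) without the sub-clusters led by other classes. All 6 calls were also made without these sub-clusters, and the call for Nrp1 was lost when every cell had the same weight. Only blood endothelial-like cells were split into sub-clusters. The lymphatic endothelial-like cells, whose erythroid markers summed to 10500 CPM at E13.5, were used whole.

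Within blood endothelial-like cells, small arterial-like (31, 31 and 18 cells at the 3 stages) and venous-like (40 at E16.5 and 20 at P0) sub-clusters differed in co-receptor and ligand. Nrp2 was 296 CPM (256 to 340.2) in venous-like and 61.8 (41.7 to 88.3) in arterial-like cells at E16.5, and 140 (92.2 to 204) and 29.0 (9.41 to 67.7) at P0. Nrp1 had the reverse order at E16.5, with 536 CPM (473 to 605) in arterial-like and 388 (343 to 439) in venous-like cells, and at P0 the intervals overlapped at 267 (195 to 356) and 171 (118 to 240.0). Vegfc was 74.2 CPM (52.0 to 103) in arterial-like and 8.93 (3.28 to 19.4) in venous-like cells at E16.5, and 34.8 (12.8 to 75.7) at P0 against 0 UMIs, which allows up to 15.5 CPM and so does not set both apart. At E13.5 the arterial-like cells, with weaker arterial markers than at E16.5 and no venous-like cells beside them, had 32.1 CPM of Vegfc (19.9 to 49.1). Flt1 at E16.5 was 385 CPM (332 to 445) in arterial-like and 225 (190 to 264) in venous-like cells, and at P0 it was 255 and 264 CPM with overlapping intervals.

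The receptors were often seen in the same cell. All of Flt1, Kdr and Tek had a UMI in 22.5% of blood endothelial-like cells, 52.8% and 33.7%, and at least 1 of them did in 72.9%, 97.7% and 97.3%. These shares are not thinned, and depth was highest at E16.5. The highest number of Kdr UMIs in a cell was 35, 46 and 17.

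Of the co-receptors, Nrp1 was counted in many classes, and at E13.5 all 13 classes named held at least 97.0 CPM, with neuron-like cells second at 339 (318 to 362). Dermal-like cells had 460 CPM (451 to 469), 249 (244 to 254) and 53.4 (49.97 to 56.9). The same order held in epithelial-like cells, with 97.0 (88.1 to 107), 31.7 (29.0 to 34.7) and 2.48 CPM (1.82 to 3.30), and in the whole libraries, with 293, 194 and 36.7 CPM. Macrophage-like cells had 321 CPM (300.2 to 343), 328 (297 to 362) and 38.8 (25.4 to 56.9). In blood endothelial-like cells Nrp1 was 297 CPM (270.3 to 326), 353 (338 to 369) and 147 (134 to 162). The P0 library, the 1 digested with collagenase IV, was thus the lowest in each of these classes. Over the 3 stages the 8 dermal markers summed to 8800, 28140 and 42300 CPM for the dermal-like class. For epithelial-like cells the sums were 2728, 3545 and 1458 CPM. Erythroid-like cells of the E13.5 library had 6533 CPM of these markers and 245 CPM of Nrp1. Tendon-like cells of that library had more of the markers, 9582 CPM, but less Nrp1, 122 CPM. Whether Nrp1 outside the dermal-like class came from dermal transcripts was not tested.

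The log2 difference of Nrp1 between blood endothelial-like and all other cells was 0.02 (-0.13 to 0.17), 0.94 (0.85 to 1.03) and 2.00 (1.81 to 2.19). Lymphatic endothelial-like cells had 101 CPM (87.3 to 117) at E13.5 and 19.4 (11.7 to 30.4) at E16.5. Among dermal-like clusters at E13.5 the highest level was 834 CPM (801.2 to 867.6), in 328 cells led by Calb1, Nrgn, Ass1 and Crabp1.

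Nrp2 was high in lymphatic endothelial-like cells, in the small venous-like sub-clusters above and in cells of the hair follicle. Lymphatic endothelial-like cells had 477 CPM (446 to 509), 601 (554 to 652) and 409 (331 to 499.9), above blood endothelial-like cells with 95.1 (80.1 to 112), 160.2 (149.9 to 171) and 77.9 (68.2 to 88.6). Cells like the dermal condensate (DC) or dermal papilla (DP), the dermal signalling centre of the follicle, had 282 CPM (266 to 299.8) at E16.5 in 404 cells and 239 (214 to 266) at P0 in 198 cells. Other dermal-like cells had 62.2 CPM (59.5 to 64.9) and 53.2 (49.6 to 56.9). On the epithelial side, placode, germ or matrix-like cells had 159 CPM (146 to 173) at E16.5 and 254 (238 to 272) at P0. Inner root sheath-like cells had 222 CPM (197 to 249) at P0, outer follicle-like cells 81.1 (75.0 to 87.6), basal-like cells 12.8 (9.70 to 16.7) and suprabasal-like cells 6.15 (3.07 to 11.0). The leading genes of the inner root sheath-like cells also included Krt35, Msx1 and Msx2. The paper lists Msx1 and Msx2 for the hair shaft, so this group may hold shaft precursors too. The follicle classes thus stood above other dermal-like, basal-like and suprabasal-like cells of the same library, with no overlap of intervals.

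DC-like or DP-like cells also held Flt1 and Kdr at levels above other dermal-like cells. Flt1 was 33.5 CPM (27.9 to 39.8) at E16.5 and 36.4 (27.1 to 47.8) at P0, against 2.29 (1.81 to 2.87) and 2.14 (1.48 to 2.99) in other dermal-like cells. Kdr was 19.0 CPM (14.9 to 23.9) and 34.2 (25.3 to 45.4), against 3.83 (3.19 to 4.56) and 2.77 (2.01 to 3.72). Tek, another endothelial receptor, had 1 UMI at E16.5 and 0 at P0 in these cells, which allows up to 2.14 CPM. The 9 blood endothelial markers summed to 88.1 CPM at E16.5 and 130 at P0 in DC-like or DP-like cells, against 101 and 96.5 CPM in other dermal-like cells. Without the cells that had a UMI of Pecam1, Cdh5 or Cldn5, Flt1 was 32.1 CPM (25.9 to 39.2) and 33.3 (23.3 to 46.1) and Kdr 17.6 CPM (13.1 to 23.0) and 32.4 (22.6 to 45.0). At P0 both clusters of the class showed it, with Flt1 at 48.9 and 31.2 CPM and Kdr at 41.6 and 31.2 CPM.

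**Figure D3:**
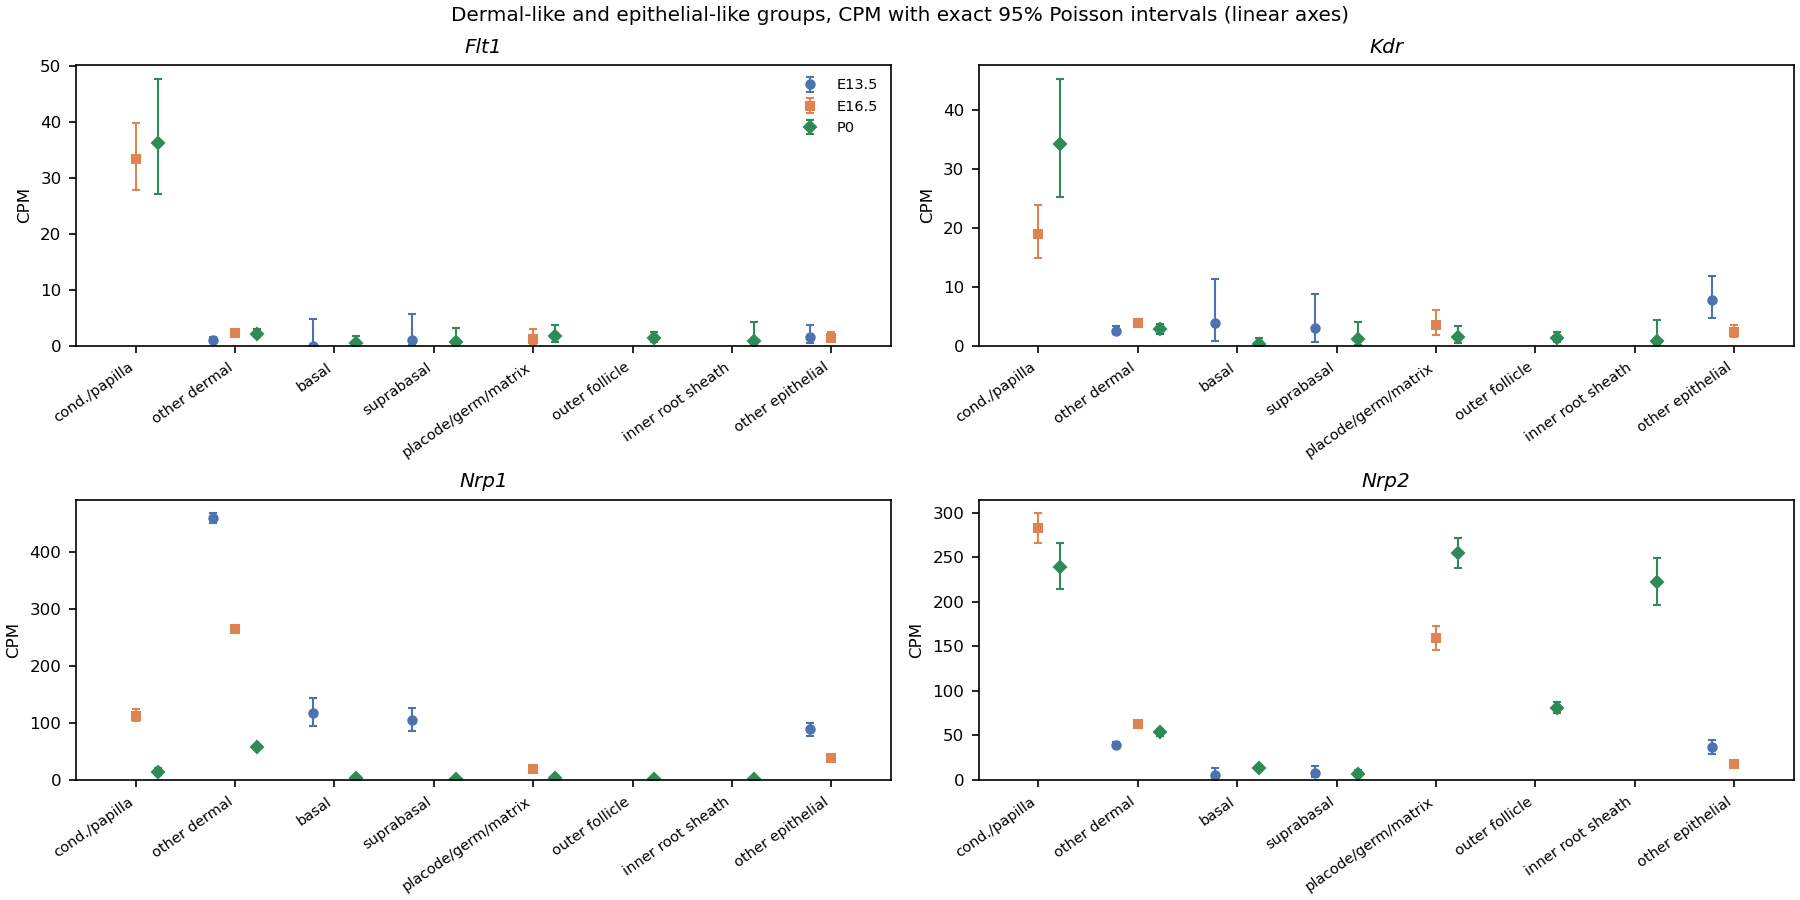
CPM of Flt1, Kdr, Nrp1 and Nrp2 in groups of dermal-like and epithelial-like cells at the 3 stages, on linear axes, with exact 95% Poisson intervals as bars. Flt1 and Kdr are above the other groups in cells like the dermal condensate or papilla, and Nrp2 is high there and in placode, germ or matrix-like and inner root sheath-like cells.

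In mural cells Flt1 was uneven. Pericyte-like cells had 23.0 CPM (17.0 to 30.5) at E16.5 and 39.7 (30.8 to 50.3) at P0, next below blood endothelial-like cells among the broad classes, though at E16.5 below the DC-like cells. At P0 it was concentrated in 1 cluster of 37 cells led by the smooth muscle genes Acta2, Myh11 and Tagln, with 160.0 CPM (117 to 214). The other clusters of the class had 15.1 (8.45 to 24.9) and 18.2 CPM (7.87 to 35.9). The last of these, with 63 cells, also had Acta2 and Myh11 among its leading genes. Kdr had 0 UMIs in these 37 cells, which allows up to 10.7 CPM. With the 1 cell that had a UMI of Pecam1, Cdh5 or Cldn5 left out, Flt1 was 163 CPM (119 to 219).

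For the angiopoietin receptor, Tek in blood endothelial-like cells was 52.5 CPM (41.6 to 65.5), 68.4 (61.8 to 75.5) and 60.0 (51.5 to 69.5), and the intervals of all 3 stages overlapped. In lymphatic endothelial-like cells Tek was 16.6 CPM (11.3 to 23.6), 28.6 (19.0 to 41.4) and 90.4 (56.0 to 138), the last from 21 UMIs in 12 cells. Thinned to 3500 UMIs, 17.1%, 21.8% and 23.1% of blood endothelial-like cells had a Tek UMI, and 0% (0 of 517 cells, which allows up to 0.580%), 0.314% and 0.209% of epithelial-like cells did; unthinned, 35.7%, 59.3% and 46.7% of blood endothelial-like cells did. Pericyte-like cells had 0 UMIs at E16.5, which allows up to 1.44 CPM, and 1 UMI at P0.

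Outside the vessels, Tek stood out in 1 dermal-like cluster at E16.5. Its 42 cells were led by Mfap5, Ly6a and Igfbp6 and had 85.4 CPM (62.3 to 114) of Tek. Dermal-like cells as a whole, these 42 included, had 1.95 CPM (1.53 to 2.45) from 72 UMIs.

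Of the ligands of Tek, Angpt2 had its highest levels in lymphatic endothelial-like and pericyte-like cells. Lymphatic endothelial-like cells had 54.1 CPM (44.1 to 65.7), 121 (99.9 to 145) and 90.4 (56.0 to 138). Pericyte-like cells had 28.8 CPM (21.96 to 37.0) at E16.5 and 90.5 (76.8 to 106) at P0. Blood endothelial-like cells had 4.66 CPM (1.87 to 9.59), 14.1 (11.2 to 17.5) and 23.9 (18.7 to 30.2), with no overlap between any pair of stages, though without the sub-clusters led by other classes the values were 5.17 (1.41 to 13.2), 16.2 (12.4 to 20.7) and 22.2 CPM (upper limit 29.1), and the intervals of neighbouring stages overlapped. Dermal-like cells held 2.84 to 5.82 CPM and epithelial-like cells 0.528 to 3.34. By their number, dermal-like cells held 22.85%, 40.9% and 19.3% of the Angpt2 UMIs, the largest share of any class at E16.5.

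Most Angpt1 UMIs came from the E13.5 library. There it had 697 UMIs (13.1 CPM, 12.1 to 14.1), against 56 UMIs (0.845 CPM, 0.639 to 1.10) at E16.5 and 55 (1.18 CPM, 0.889 to 1.54) at P0. At E13.5 cartilage-like cells had 79.7 CPM (66.2 to 95.3) and tendon-like cells 44.0 (35.4 to 54.0), against 11.4 (10.0 to 12.9) in dermal-like cells, which by their number held 35.2% of its UMIs. At E16.5 pericyte-like cells had 17.8 CPM (12.5 to 24.5) and held 66.1% of its UMIs, while dermal-like cells had 0.271 CPM (0.130 to 0.498). At P0 pericyte-like cells had 12.3 CPM (7.59 to 18.7) and the 45 adipocyte lineage-like cells 24.0 (14.0 to 38.4). No cartilage-like or tendon-like cells were named at E16.5 or P0.

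Against all other cells, pericyte-like cells had Vegfc, Angpt1 and Angpt2 called higher at E16.5, 3 of the 10 genes against 2.75% of all genes. At P0 Angpt1 and Angpt2 were called, against 4.63% of all genes, and Flt1 too when the blood endothelial-like sub-clusters led by other classes were left out of the other cells. The call for Angpt1 at P0 was lost with cells of at least 2500 genes. The log2 difference of Angpt2 was 1.17 (0.83 to 1.501) at E16.5 and 2.81 (2.54 to 3.08) at P0.

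Vegfa, the main ligand of Kdr, was low in most classes. Dermal-like cells had 11.1 CPM (9.72 to 12.6), 12.3 (11.2 to 13.53) and 2.14 (1.51 to 2.95). Epithelial-like cells had 7.12 CPM (4.87 to 10.1), 8.16 (6.79 to 9.73) and 0.686 (0.365 to 1.17). The log2 difference between epithelial-like and dermal-like cells was -0.30 (-0.60 to 0.02), -0.30 (-0.49 to -0.11) and -0.18 (-0.32 to -0.04). The intervals of both levels overlapped at E13.5 and were apart at E16.5 and P0. With 10 added to levels this low no 2-fold call could be reached at P0, where the ratio of the levels was 0.321. The highest Vegfa level of any class was 45.1 CPM (30.8 to 63.6), in the 45 adipocyte lineage-like cells at P0, which held 32 of the 98 Vegfa UMIs of that library. The whole P0 library, at 2.10 CPM (1.71 to 2.56), lay below the E13.5 and E16.5 libraries at 8.76 (7.98 to 9.59) and 9.71 (8.97 to 10.5).

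Vegfc, the ligand of Flt4, came mostly from dermal-like cells, which held 62.8%, 69.5% and 66.0% of its UMIs. Dermal-like cells were also 38.5%, 63.1% and 52.1% of all cells. Their level was 27.1 CPM (24.98 to 29.4), 13.45 (12.3 to 14.7) and 18.0 (16.0 to 20.1). Pericyte-like cells had 36.9 CPM (29.1 to 46.2) at E16.5 and 8.76 (4.90 to 14.4) at P0. Epithelial-like cells had 7.34 CPM (5.05 to 10.3), 2.11 (1.44 to 2.97) and 4.06 (3.21 to 5.08). Melanocyte-like cells had 17.7 CPM (8.48 to 32.5), 25.4 (14.8 to 40.7) and 19.1 (12.9 to 27.3), overlapping with dermal-like cells at E13.5 and P0.

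**Figure D4:**
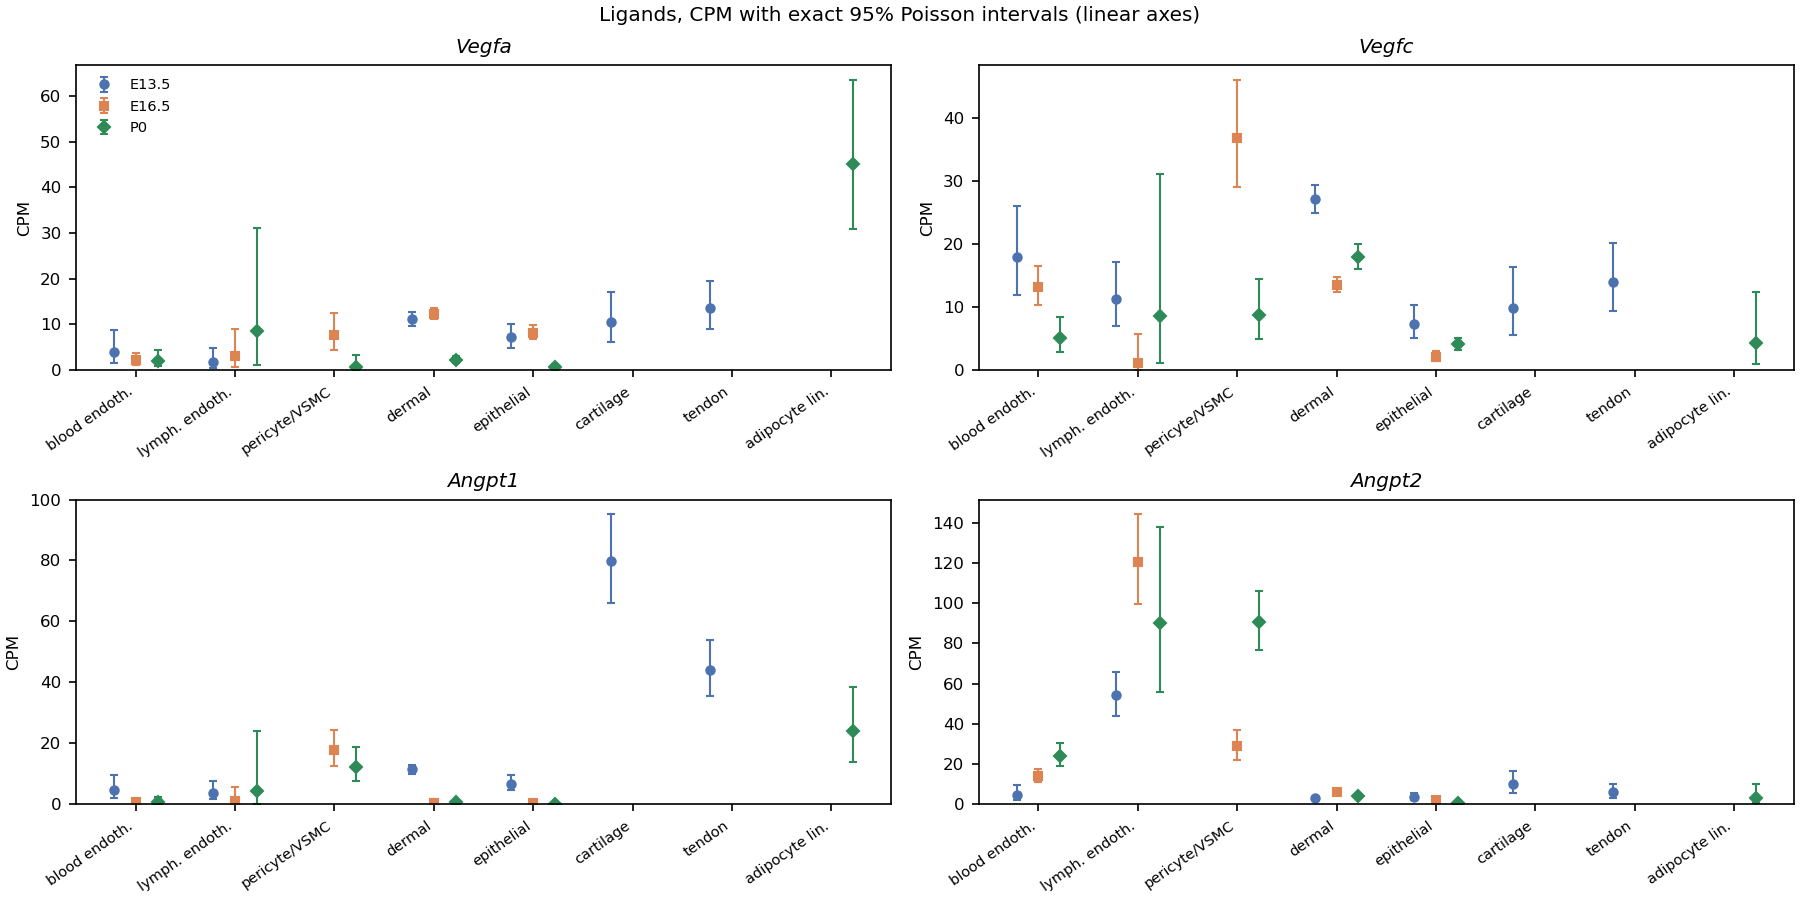
CPM of Vegfa, Vegfc, Angpt1 and Angpt2 in 8 cell classes at the stages where each class was named, on linear axes, with exact 95% Poisson intervals as bars. Vegfa is highest in adipocyte lineage-like cells at P0 (45.1 CPM), Angpt1 in cartilage-like cells at E13.5 (79.7 CPM), and Angpt2 in lymphatic endothelial-like and pericyte-like cells.

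Between stages, few of the 10 genes were called in blood endothelial-like cells, and the calls depend on the 10 added to each CPM. From E13.5 to E16.5, 0 of the 8 genes with enough UMIs were called higher and 0 lower, against 1.43% and 1.91% of all genes. From E16.5 to P0, 0 of 8 were called higher, against 2.69% of all genes, and Flt4 and Nrp1, 2 of 8, were called lower, against 2.80%. Their log2 differences were -1.22 (-1.64 to -0.78) and -1.21 (-1.40 to -1.02). Nrp2 was near the threshold, at -0.95 (-1.21 to -0.70). With 1 added instead, Nrp2 and Vegfc were called lower too, and Angpt2 was called higher at E16.5 than at E13.5. Between E13.5 and P0, Angpt2 was called higher, 1 of 7 against 7.28% of all genes, at 1.21 (0.55 to 1.76), a call that was lost when cells were gated by their own marker UMIs. Flt4 was called lower, 1 of 7 against 9.17%, at -1.49 (-2.04 to -0.90). Without the sub-clusters led by other classes, Nrp1 was called lower too.

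**Figure D5:**
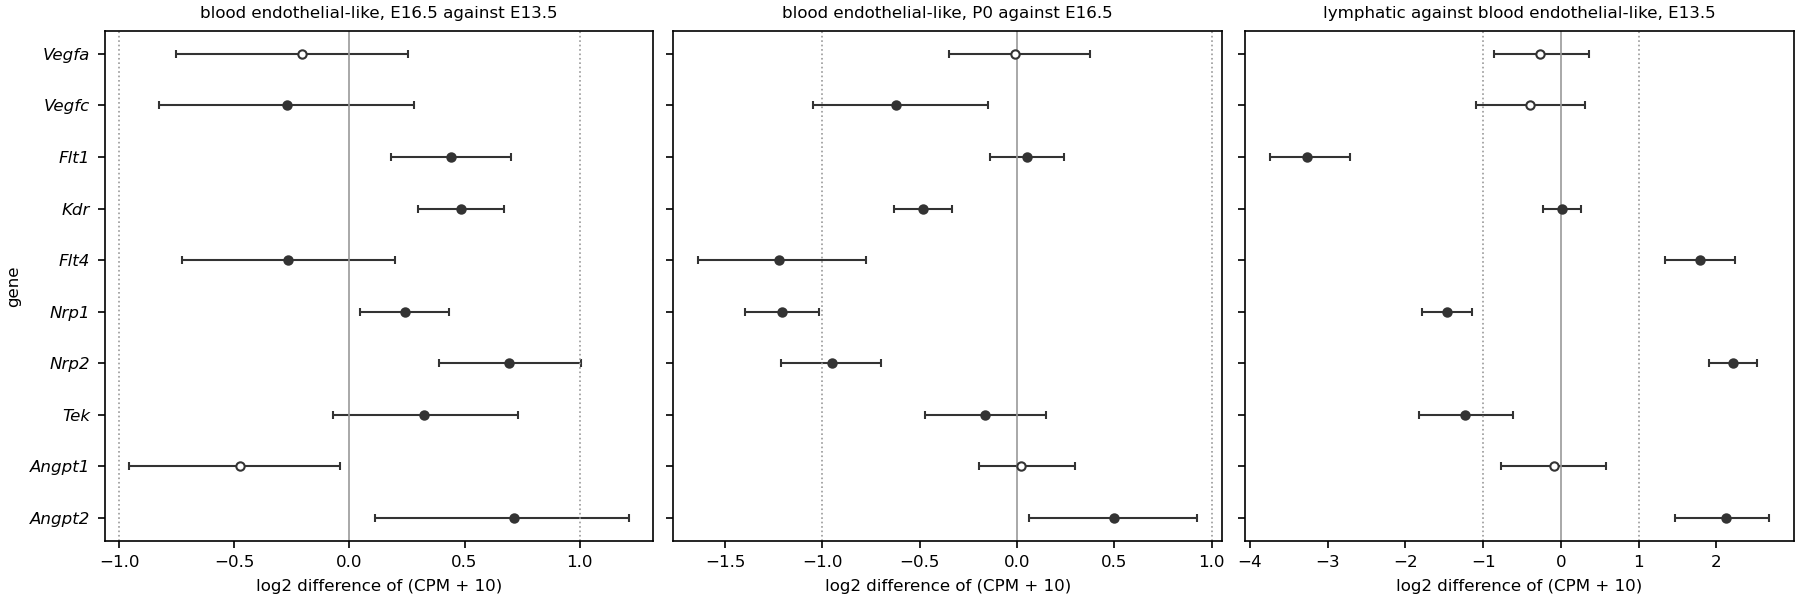
Log2 difference of CPM plus 10 for the 10 genes between stages of blood endothelial-like cells and between lymphatic and blood endothelial-like cells at E13.5, with intervals from the exact 95% Poisson limits and dotted lines at 2-fold. Open points mark genes under 50 UMIs. Flt4 and Nrp1 lie past 2-fold lower at P0 than at E16.5, and 6 genes lie past 2-fold between both vessel types.

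The partners of both systems were read from fixed lists, whose values and calls all include the sub-clusters led by other classes. Of the Tie partners, Tie1 and Ptprb, the co-receptor and the phosphatase of Tie2, were called higher in blood endothelial-like cells at all 3 stages, 2 of 3 genes with enough UMIs, against 3.19%, 4.75% and 6.33% of all genes. These shares apply to each list below where blood endothelial-like cells are set against all other cells. Tie1 was 118 CPM (102 to 137), 150.3 (140.4 to 161) and 171 (157 to 187) there, and Ptprb 48.5 (38.1 to 61.0), 77.5 (70.5 to 85.1) and 95.1 (84.3 to 107). Svep1, an extracellular ligand of Tie1, was 41.1 CPM (38.4 to 43.9), 29.3 (27.6 to 31.1) and 19.5 (17.5 to 21.7) in dermal-like cells. Of the 3 other VEGF ligands measured (Vegfb, Figf and Pgf), 0 were called higher in blood endothelial-like cells. Vegfb was 80.0 CPM (76.3 to 83.9), 54.2 (51.9 to 56.7) and 26.0 (23.7 to 28.5) in dermal-like cells. Figf, which encodes VEGF-D, was 75.9 CPM (72.2 to 79.7), 59.1 (56.7 to 61.7) and 39.0 (36.1 to 42.0) in dermal-like cells. Pgf was 58.9 CPM (48.4 to 71.0) in lymphatic endothelial-like cells at E13.5. It was called higher there than in blood endothelial-like cells, 1 of 3 genes against 1.86% of all genes. In pericyte-like cells Pgf was 27.3 (20.7 to 35.4) at E16.5 and 40.9 (31.9 to 51.6) at P0. Both times it was called higher than in all other cells, 1 of 3 genes against 2.75% and 4.63% of all genes. Ccbe1, which helps to activate Vegfc, was 5.03 CPM (4.12 to 6.07), 6.50 (5.70 to 7.37) and 3.82 (2.95 to 4.85) in dermal-like cells, and 0 of the Vegfc processing genes were called against all other cells, where 1 or 2 of the 2 genes had enough UMIs. Neither had enough in the comparisons between stages or between both vessel types.

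Of the 12 class 3 semaphorins and plexins, Plxnd1 alone was called higher in blood endothelial-like cells of both embryonic libraries, and Plxnd1 and Plxna2 at P0. Plxnd1, a semaphorin receptor of vessels, was 198 CPM (176 to 222), 278 (264 to 292) and 168 (154 to 183). Sema3a, a ligand of Nrp1, was 62.9 CPM (59.6 to 66.4), 29.7 (28.0 to 31.5) and 16.1 (14.2 to 18.1) in dermal-like cells. List genes were not read in melanocyte-like, tendon-like or erythroid-like cells. Among the other named classes, Sema3c was highest in Schwann-like cells at each stage, with 122 (107 to 138), 219.6 (196 to 246) and 166 CPM (135 to 202).

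Of the 6 endothelial sprouting genes, 4 of the 5 with enough UMIs were called higher in blood endothelial-like cells, 5 of 6 and 3 of 4, against 3.19%, 4.75% and 6.33% of all genes. The apelin receptor Aplnr was 315 CPM (287 to 345), 531 (513 to 551) and 353 (332 to 375), and its ligand Apln 104 (88.1 to 121), 151 (141 to 162) and 112 (100.2 to 124.7). Esm1 and Kcne3, both known from tip cells, were called lower at P0 than at E16.5, as were 2.80% of all genes, Esm1 at 33.4 (28.8 to 38.5) and 3.71 CPM (1.85 to 6.64) and Kcne3 at 52.2 (46.5 to 58.5) and 4.05 (2.09 to 7.07).

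Of the 8 hypoxia regulators, Epas1, which encodes HIF-2α, was called higher in blood endothelial-like cells at every stage, with 79.1 CPM (65.6 to 94.7), 115 (106 to 124) and 159 (145 to 174). Hif1a, with 89.8 CPM (75.3 to 106), 95.1 (87.3 to 104) and 93.1 (82.4 to 105), joined it at P0, and Egln2, the regulator with the most UMIs, was 75.8 (62.5 to 91.1), 72.4 (65.6 to 79.8) and 82.3 (72.3 to 93.3) and was not called. Pericyte-like cells had 28.3 CPM (21.5 to 36.5) of Epas1 at E16.5 and 89.3 (75.7 to 105) at P0. At P0 Epas1 (1 of 8 regulators) and the target Ankrd37 (1 of 7) were called higher than in all other cells, against 4.63% of all genes. Of the 7 hypoxia targets with enough UMIs, the glucose transporter gene Slc2a1 and Adm were both called higher in blood endothelial-like cells of the E13.5 library, while the later libraries had a call for Adm (E16.5) or for Slc2a1 (P0). Slc2a1 was not read in erythroid-like cells, and at E13.5 the erythroid markers summed to 33350 CPM in the blood endothelial-like cells. Ldha, which encodes a glycolytic enzyme and had the most UMIs of the list, was 552 CPM (515 to 591), 494 (476 to 513) and 386 (364 to 409) there and was not called. Between stages of these cells, Hif3a and Egln3 were called higher at E16.5 than at E13.5, 2 of 8 regulators against 1.43% of all genes. Egln1 (1 of 8 regulators) and Pgk1 (1 of 7 targets) were called lower at P0 than at E16.5, against 2.80%. Bnip3 was called higher at P0 than at E13.5, 1 of 7 targets against 7.28% of all genes. Slc2a1 and Pgk1 (2 of 7 targets) and the sprouting gene Kcne3 (1 of 4) were called lower, against 9.17%. In lymphatic against blood endothelial-like cells at E13.5, Egln3 was called higher, 1 of 6 regulators against 1.86% of all genes. Epas1 (1 of 6 regulators), Slc2a1 (1 of 4 targets) and Apln, Aplnr and Kcne3 (3 of 4 sprouting genes) were called lower, against 2.87%.

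Over 28 groups of class and stage with at least 50 cells, the genes most like each of the 10 by Pearson's r of log2(CPM + 10) were mostly endothelial for the receptors. Kdr went with Bcl6b (0.993), Tie1 and Fam124b (both 0.990). Tek went with Sox7 and Adgrl4 (both 0.980) and Exoc3l (0.979), and Flt1 with Adgrf5 (0.965), Epas1 (0.963) and Plvap (0.959), the last a naming marker. Flt4 went with Klhl4 (0.981), the lymphatic marker Mmrn1 (0.954) and Adgrg3 (0.933). Lymphatic endothelial-like cells entered with the 193 cells of E13.5 only, so the values for Flt4 lean on that group. Nrp2 was most like Aaed1 (0.782), the outer follicle marker Tbx1 (0.780) and Ets2 (0.747), and Nrp1 like Rrbp1 (0.851). Of the ligands, Angpt2 went with Mylk (0.831), Angpt1 with Gstt1 (0.870), Vegfa with Trim44 (0.883) and Vegfc with Rdh11 (0.747). The groups share 3 libraries and differ in depth, so these values are descriptions.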

How the data were processed

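Single cells of back skin from pooled male mice were sequenced with 10x Genomics 3′ version 2 chemistry, 1 library for each of the 3 stages. Per the submitters' processing notes and the methods, the authors aligned reads to mm10 and counted UMIs with Cell Ranger 2.2.0, filtered genes and cells in Seurat and deposited natural log (ln) values of 1 plus UMIs per 10000 UMIs of the cell. Here the UMIs were recovered: all 48197283 values above 0 were whole within a tolerance of 0.001.

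Each library was clustered alone (scanpy 1.11.5, leidenalg 0.10.2, Python 3.11.15; 2000 variable genes, 30 principal components, 15 neighbours, resolution 2) without the 10 genes and the pathway lists. A cluster was named by its highest marker list, with at least 3 markers at a log2 difference of 1 or more over the 25th percentile of clusters. Blood endothelial-like cells, but not lymphatic endothelial-like cells, were clustered again at resolution 1. The naming rules were settled after clusters had been seen. The 10 genes and the lists were chosen with earlier results of these data known. The text names all 10 genes, in the classes where they were highest and in the main classes compared, the genes of each list with the most UMIs and the genes most alike each member. Further list genes were named for their calls, and single clusters were picked out after their values were seen. UMIs were summed per class. Levels are CPM with exact Poisson limits, shares are of cells thinned to 3500 UMIs (1 cell at E16.5 had fewer), and a fold change was called at 2-fold after adding 10. The contrast was tested on simulated data. Scrublet called 84 cells (1.61%) at E16.5 and 106 (2.09%) at P0 as doublets, which were kept, and 0 at E13.5, where the caller had not worked. The alternatives tried are given in the closing section.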

Additional observations from a re-analysis of the deposited data

How the results depend on the processing

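The counts of called genes, the Vegfa differences, the class with the highest level and the shares of cells gave 234 comparisons with an alternative setting, of which 207 held within the tolerance, 27 moved and 0 reversed. Of 1556 levels compared, 1439 stayed inside the counting interval. With 1 instead of 10 added to each CPM, 1 gene was called higher at E16.5 than at E13.5 in blood endothelial-like cells, 4 lower at P0 than at E16.5, 2 lower at P0 than at E13.5, and 4 higher in pericyte-like cells at P0. In the same setting Vegfa in epithelial-like against dermal-like cells was -0.54 at E16.5 and -0.90 at P0 (log2). The count lower at P0 than at E13.5 was also 2 with cells of at least 2500 genes and without the sub-clusters led by other classes, an alternative added after the data were seen. With cells gated by their own marker UMIs, 0 were higher at P0 than at E13.5 (Angpt2 was lost), and no dermal-like class was found, so Vegfa has no value there. Without thinning, the shares of blood endothelial-like cells with a UMI at E13.5, E16.5 and P0 were 47.3%, 83.7% and 76.1% for Flt1, 61.2%, 94.8% and 85.9% for Kdr, 27.1%, 38.8% and 8.24% for Flt4, 71.3%, 92.5% and 70.6% for Nrp1, 40.3%, 70.0% and 47.5% for Nrp2, and 35.7%, 59.3% and 46.7% for Tek. At resolution 1 the P0 class with the highest level was the same for 7 of the 10 genes. No paired analysis was possible because each stage has 1 library. Few cells limit the lymphatic endothelial-like values at P0 (12 cells) and those of the arterial-like and venous-like sub-clusters, and there was no replicate to give a spread between samples.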

Other observations

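An E13.5 cluster of 45 cells was left unnamed, and of the unnamed clusters of that library it was the closest to the blood endothelial markers. It was led by Igfbp7, Vtn and Cldn5, with the glucose transporter gene Slc2a1 and globin genes also among its leading genes.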
